A study of Mus musculus with 3 samples.

Results

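The distal end of mouse chromosome 2 holds a dense run of zinc finger genes, and its promoters were followed here through 3 Omni-ATAC-seq libraries of hair follicle stem cells (HFSCs). Omni-ATAC-seq lets the transposase Tn5 cut open chromatin in nuclei, so that a peak of sequenced tags marks accessible DNA. The members were all 54 protein-coding genes that lie wholly within 4 Mb of chromosome 2, from Stx16, which starts at 174076308 in the GRCm38 build, to Gm14326, which ends at 177957297, out of 21938 protein-coding genes on the autosomes, X and Y. Of these, 38 were counted as zinc finger genes, from a symbol beginning with Zfp, Zscan or Zbtb or from at least 1 C2H2 motif in the annotated protein, and 16 as other genes. The stretch was chosen because of peaks seen in these same libraries, so the counts below describe the members and are not a test of them. The comparison set was 379 autosomal protein-coding genes elsewhere whose symbol begins with Zfp.

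The Msx2-WT library came from C57BL/6J mice with intact Msx2, and the 2 Msx2-KO libraries (rep 1 and rep 2, replicates 1 and 2 in the plots) came from homozygous Msx2 knockout mice, which carry a neomycin cassette inserted near exon 2. All 3 were made from untreated HFSCs sorted from dorsal skin of 6-month-old mice in telogen, when hair follicles rest. The strain of the embryonic stem cells behind the knockout is not given in the sources used here. Both Msx2-KO libraries share a batch date in the labels and Msx2-WT has another, so genotype, batch and strain background cannot be told apart. The number of copies in the run and their sequence in the mice used cannot be read from peak lists made on the reference genome, and their part in the tags and classes was not tested. With 1 Msx2-WT library no difference between genotypes could be tested, and all intervals below cover counting error only.

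Zinc finger proteins of the C2H2 type bind DNA through a row of fingers, each a short loop of protein folded around a zinc ion. Many mouse genes of this type also encode a KRAB domain, which recruits a corepressor and silences chromatin, and a well-known target of such proteins is transposable elements. Genes of this kind multiply by tandem duplication and sit in clusters of close copies. Where copies are nearly identical, a short read can match several of them equally well.

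The members fell into 2 blocks. From Stx16 to Edn3 the stretch held 10 single-copy genes of unrelated function and Zfp831, which encodes 2 fingers by the motif search. The remaining 43 members filled a run of 2.95 Mb, from 175010241 to 177957297, with 37 zinc finger genes and 6 genes without a detected finger. The zinc finger members encoded a median of 12 motifs and a median protein of 498 residues, and Gm14295 had the most motifs with 25. No motif was found in the annotated proteins of Zfp968 and Zfp972, which were counted by symbol, and only 1 in those of 2210418O10Rik and Gm14296. Most members of the run carry Gm symbols, names given to predicted genes.

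The promoters of the run were themselves copies of each other. Windows of 250 bases on either side of the outer start of each of the 43 genes were aligned in pairs, and 30 of them formed a single group in which every pair matched over at least 300 bases at 92.0% identity or more, with a median of 95.3%. Of the 30 windows, 26 belonged to zinc finger genes and 4 to the finger-less Gm14440, Gm14288, Gm14435 and Gm14327. A stretch of 100% identity over at least 300 bases with another window was found for 18 of the 30. The windows of 2210418O10Rik and Gm14296 matched at all 501 bases although their starts lie on opposite strands, and so did those of Zfp965 and Zfp973. The other 13 windows of the run fell into smaller sets of at most 4 alike.

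The group is shown by 120 bases around the Msx2-KO rep 2 summit of 2210418O10Rik and the best ungapped match to them near other starts. Capitals mark bases that differ from the 2210418O10Rik copy. All were read 5′ to 3′ along the gene from the GRCm38 reference, and the identical or near-identical copies were picked because their peaks differed between libraries.
2210418O10Rik, chr2:176226451-176226570, plus strand: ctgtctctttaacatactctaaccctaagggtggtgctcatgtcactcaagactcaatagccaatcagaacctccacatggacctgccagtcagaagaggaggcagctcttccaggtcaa
Gm14296, chr2:176927808-176927927, minus strand: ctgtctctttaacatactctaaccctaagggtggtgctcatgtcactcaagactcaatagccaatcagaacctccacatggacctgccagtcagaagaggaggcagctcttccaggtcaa
Gm14308, chr2:176636356-176636475, minus strand: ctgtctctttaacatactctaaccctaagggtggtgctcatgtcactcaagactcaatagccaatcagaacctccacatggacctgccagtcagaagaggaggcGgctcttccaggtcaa
Gm4724, chr2:175435814-175435933, minus strand: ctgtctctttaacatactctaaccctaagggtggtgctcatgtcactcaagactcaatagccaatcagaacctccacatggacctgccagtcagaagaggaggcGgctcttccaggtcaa
Zfp965, chr2:175469887-175470006, plus strand: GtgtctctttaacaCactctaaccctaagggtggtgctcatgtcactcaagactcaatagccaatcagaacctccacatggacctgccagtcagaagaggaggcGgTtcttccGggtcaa
Zfp973, chr2:176670424-176670543, plus strand: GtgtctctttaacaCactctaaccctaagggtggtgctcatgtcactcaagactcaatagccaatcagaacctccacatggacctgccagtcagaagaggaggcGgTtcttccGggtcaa
Gm14399, chr2:175142048-175142167, minus strand: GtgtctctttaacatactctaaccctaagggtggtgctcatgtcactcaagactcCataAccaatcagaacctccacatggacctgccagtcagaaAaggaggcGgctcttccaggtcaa
Zfp972, chr2:177925678-177925797, minus strand: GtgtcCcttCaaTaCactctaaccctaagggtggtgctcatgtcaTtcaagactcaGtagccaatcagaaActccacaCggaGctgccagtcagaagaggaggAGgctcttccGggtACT
Gm14308 and Gm4724 each differed from 2210418O10Rik at 1 of the 120 bases, Zfp965, Zfp973 and Gm14399 at 5, and Zfp972, whose window lies outside the group of 30, at 16. The 120 bases before the start of Gm14401, a zinc finger member whose nearest copy in the run matched at 90.4%, are given in lower case throughout, and their first part resembles the end of the Zfp972 block.
Gm14401, chr2:177074200-177074319, plus strand: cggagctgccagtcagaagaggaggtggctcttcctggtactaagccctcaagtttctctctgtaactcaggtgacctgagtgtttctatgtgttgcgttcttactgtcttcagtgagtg

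The word of 20 bases found in all 30 windows of the group, taken as the first of its kind along 2210418O10Rik, lay inside this block.
Shared word: actctaaccctaagggtggt
It occurred 54 times on either strand of the autosomes, X and Y, 51 times in the stretch and 3 times just beyond it on chromosome 2, with Zfp971 and Zfp931 as the nearest genes. Of all 21938 promoter windows 35 held the word, which is 0.16%. The word was chosen from the group, so its presence there is part of its definition, while its absence from the rest of the genome is not. In the 250 bases before to 50 after the start, the motif CCAAT, searched on both strands, was present in 30 of 30 windows of the group, against 39.0% of all promoters and 43.5% of the Zfp promoters elsewhere. The GC box letters GGGCGG were found in 0 of the 30, against 43.0% of all promoters, and TATAAA was found in 0, against 12.6%. Of the 13 other windows of the run 11 held CCAAT and 0 held either of the other motifs. Copies of a single promoter are not independent, so these shares describe 1 sequence more than 30. CpG dinucleotides were scarce: the ratio of observed to expected CpG had a median of 0.288 in the group and 0.683 in the Zfp genes elsewhere.

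A promoter peak was called where a listed summit with a q-value under 0.01, a −log10 q above 2.0, lay within 1500 bases of a protein-coding transcript start. In Msx2-WT, 18 of 38 zinc finger members had one, or 47.4% (95% Wilson interval 32.5 to 62.7). In Msx2-KO rep 1, 25 members had one, or 65.8% (49.9 to 78.8). In Msx2-KO rep 2, 26 members had one, or 68.4% (52.5 to 80.9). Over all protein-coding genes the shares were 47.2% in Msx2-WT, 38.0% in Msx2-KO rep 1 and 53.7% in Msx2-KO rep 2. The share of the zinc finger members was close to that of all genes in Msx2-WT and higher in both Msx2-KO libraries. The stretch was picked for peaks in these libraries, and the promoters of 26 of the 38 were close copies of each other. The intervals treat the members as independent, so they are too narrow for a comparison with all genes, and none was tested. The Msx2-WT share depended on the limit: it was 13.2% with tags thinned to the shallowest background, 26.3% with lists of equal length and 65.8% with every deposited peak. The Zfp genes elsewhere stood above the all-gene share in all 3 libraries, at 69.4% (64.6 to 73.8), 57.8% (52.8 to 62.7) and 82.1% (77.9 to 85.6).

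**Figure D1:**
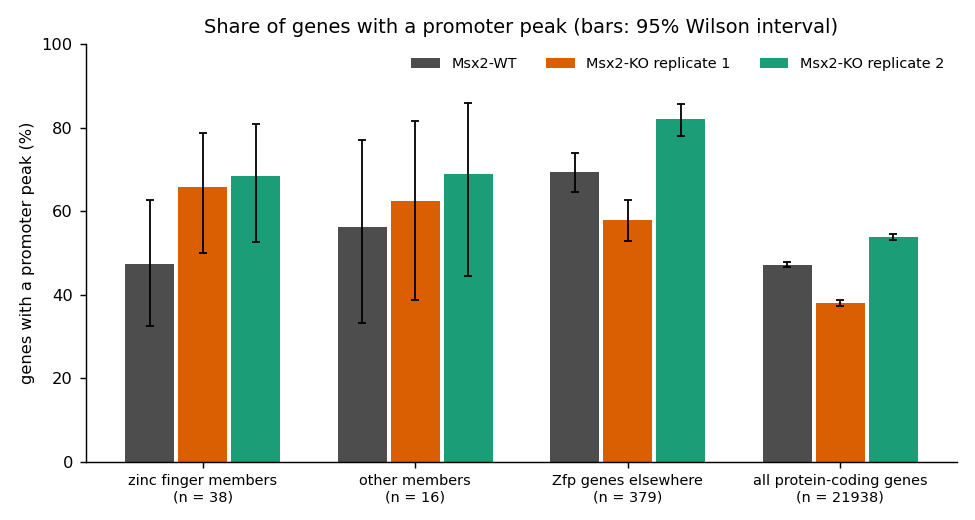
The share of genes with a promoter peak (percent) is drawn for 4 sets of genes, with a bar for each of the 3 libraries and the 95% Wilson interval. The zinc finger members had the lower share in Msx2-WT (47.4%) and similar shares in the 2 Msx2-KO libraries (65.8% and 68.4%), while the Zfp genes elsewhere had the lowest share in Msx2-KO rep 1 (57.8%).

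The libraries differed in depth. The list of Msx2-WT held 104376 summits, 33654 of them past the limit, Msx2-KO rep 1 held 36494 and 19450, and Msx2-KO rep 2 held 83318 and 41091. The library background, the tag number expected at a position by the peak caller's genome-wide rate, was 1.74 in Msx2-WT, 0.476 in Msx2-KO rep 1 and 0.790 in Msx2-KO rep 2. A summit needed at least 9, 5 and 6 tags, in that order, to pass the limit. Of 8 HFSC marker genes 6, 5 and 7 had a promoter peak, of 5 leukocyte markers 0 in each library, of 5 melanocyte markers 2 in each (Dct and Pmel) and of 5 fibroblast markers 2, 1 and 3. Msx2 itself had a promoter peak in each library, which is no check of the genotype, since the inserted cassette lies near exon 2 and not at the promoter.

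By combination of libraries, 17 zinc finger members had a promoter peak in all 3, 8 in both Msx2-KO libraries alone, 1 in Msx2-WT alone, 1 in Msx2-KO rep 2 alone and 11 in none. No zinc finger member had a peak in Msx2-WT and Msx2-KO rep 2 only, a combination that held 9.64% of all genes, nor in Msx2-WT and Msx2-KO rep 1 only (0.137% of all genes), nor in Msx2-KO rep 1 alone (0.242%). The 8 are 21.1% of the zinc finger members (11.1 to 36.3), and the same class held 2.33% of all protein-coding genes and 5.28% (3.44 to 8.01) of the Zfp genes elsewhere. The class of all 3 held 44.7% of the zinc finger members and 35.3% of all genes. The class of Msx2-WT alone held 2.63% of the zinc finger members and 2.11% of all genes, that of Msx2-KO rep 2 alone 2.63% and 6.49%, and 28.9% and 43.8% had a peak in none. This stretch was picked for the class of both Msx2-KO libraries, so the first of these differences is a description, and its size depended on the limit. With every deposited peak the class held 4 zinc finger members and 1.85% of all genes, and at a −log10 q of at least 5 it held 13 members and 1.57% of all genes. By symbol alone, which left 9 zinc finger members, it held 2. With lists of equal length, 19450 summits each, the class grew to 15 zinc finger members and to 3.88% of all genes, and with tags thinned to the shallowest background to 19 members and 10.7% of all genes.

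The 8 members with a peak in both Msx2-KO libraries alone were Gm4631, Zfp965, Gm2026, 2210418O10Rik, Gm14434, Gm14308, Gm14418 and Zfp972. At 2210418O10Rik the summits had 7 tags in Msx2-WT, 17 in Msx2-KO rep 1 and 27 in Msx2-KO rep 2. At Zfp965 they had 8, 13 and 24 tags, in the same order. At Gm4631 they had 6, 13 and 26. In these 3 the Msx2-WT summit was listed but missed the limit, with a −log10 q of 1.00, 1.63 and 0.462. Gm2026 had 12 and 29 tags in the Msx2-KO libraries and no summit in the Msx2-WT list. Gm14434 had 12 and 19, and Gm14308 had 16 and 23, again with none listed in Msx2-WT. The last pair of the 8 had Msx2-WT summits that were listed at another place: Gm14418 had 9 and 22 tags in the Msx2-KO libraries, and its 6 tags in Msx2-WT lay 4928 bases into the gene by another start. Zfp972 had 8 and 15 tags near its outer start, and its 5 tags in Msx2-WT lay 1338 bases downstream.

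Copies with identical or almost identical promoters fell into different classes. Gm14296, whose window matches that of 2210418O10Rik at every base, had 19, 10 and 30 tags, so that Msx2-WT was past the limit at one copy (95% Poisson interval 11.4 to 29.7) and below it at the other (2.81 to 14.4), though these intervals overlapped. Zfp973, the exact match of Zfp965, had 9, 8 and 26 tags. Its 9 tags passed the limit in Msx2-WT while the 8 at Zfp965 did not, a step of 1 tag. Gm4724 matched Gm14308 at 100% over 496 bases and had 15, 15 and 19 tags, where Gm14308 had none listed in Msx2-WT. For these 3 pairs the reference gives no base in the aligned part by which a read could be placed, how the aligner resolved ties is not given in the sources used here, and the part of this in the tag numbers was not tested.

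The members with a peak in all 3 libraries included the ones with the most tags. Gm14399 had 21, 25 and 36 tags and Gm14410 had 21, 24 and 36. Zfp970 had 25, 11 and 26, the most in Msx2-WT of any zinc finger member. Msx2-WT was not the lowest of the 3 libraries in raw tags at Zfp970, but it was so over background, at 14.4-fold against 23.1-fold and 32.9-fold. Gm14325 had 11, 18 and 40 tags, the most in Msx2-KO rep 2. Gm14391 had 11, 21 and 33, and its close copy Gm6710 had 12, 21 and 28. Gm14326 had 17, 12 and 31, and Gm14305 had 12, 10 and 30. Gm14410 has 9 motifs and the others named in this paragraph between 14 and 18. Long arrays also occurred in members without a listed promoter summit, such as Gm14443 with 16 motifs. The median was 13 motifs in the 17 zinc finger members with a peak in all 3 libraries and 10.5 in the 10 with a peak in 1 or 2. It was 6.5 in the 4 with only summits below the limit and 13 in the 7 with none listed. Of these 7, Gm14322, Gm11007, Gm2007 and Gm2004 had summits before their outer starts, described below.

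A second set of close copies, with symbols of the Zfp series, had lower values in Msx2-KO rep 1. Zfp966 had 10, 11 and 19 tags, Zfp967 had 11, 9 and 24, Zfp968 had 13, 8 and 23, and Zfp969 had 16, 10 and 19. The windows of these 4 genes matched each other at 100% in their aligned part. Their tags ranged from 10 to 16 in Msx2-WT, 8 to 11 in Msx2-KO rep 1 and 19 to 24 in Msx2-KO rep 2, so the order of the libraries in raw tags was the same in 3 of the 4 and differed at Zfp966. Over the library background Msx2-WT was the lowest at each of the 4. It had 5.75 to 9.21-fold, against 16.8 to 23.1-fold in Msx2-KO rep 1 and 24.1 to 30.4-fold in Msx2-KO rep 2. Gm14295, a near copy of the same set at 99.6% identity, had 13, 9 and 21. Gm14419, the member with a peak in Msx2-KO rep 2 alone, had 20 tags there, 7 below the limit in Msx2-WT and none listed in Msx2-KO rep 1.

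Over the background of its library, each of the 17 zinc finger members with a peak in all 3 libraries was lower in Msx2-WT than in either Msx2-KO library, and so were 87% of all genes with a peak in all 3. The factor ranged from 5.18 at Zfp973 to 14.4 at Zfp970 in Msx2-WT, from 16.8 to 52.5 in Msx2-KO rep 1 and from 13.9 to 50.6 in Msx2-KO rep 2. Over the promoter peaks of all genes the median factor was 13.8, 27.3 and 26.6. A scale that does not use the background is the rank of a summit's tags among all promoter peaks of its library. On it the zinc finger members with a peak had a median percentile of 15.7 in Msx2-WT, 47.2 in Msx2-KO rep 1 and 58.6 in Msx2-KO rep 2, over 18, 25 and 26 members. The Zfp genes elsewhere had 38.8, 42.3 and 45.1, over 263, 219 and 311 genes. The percentiles were taken among 10347, 8334 and 11789 genes with a promoter peak, so both the genes ranked and the scale differ between libraries, and they are a description. In Msx2-WT 1 of the 18 zinc finger members with a peak lay above the median promoter, against 10 of 25 and 18 of 26 in the Msx2-KO libraries. For the Zfp genes elsewhere the counts were 99 of 263, 97 of 219 and 133 of 311. The 25 and 26 include the 8 members of the class for which the stretch was picked, so the contrast between libraries is a description.

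**Figure D2:**
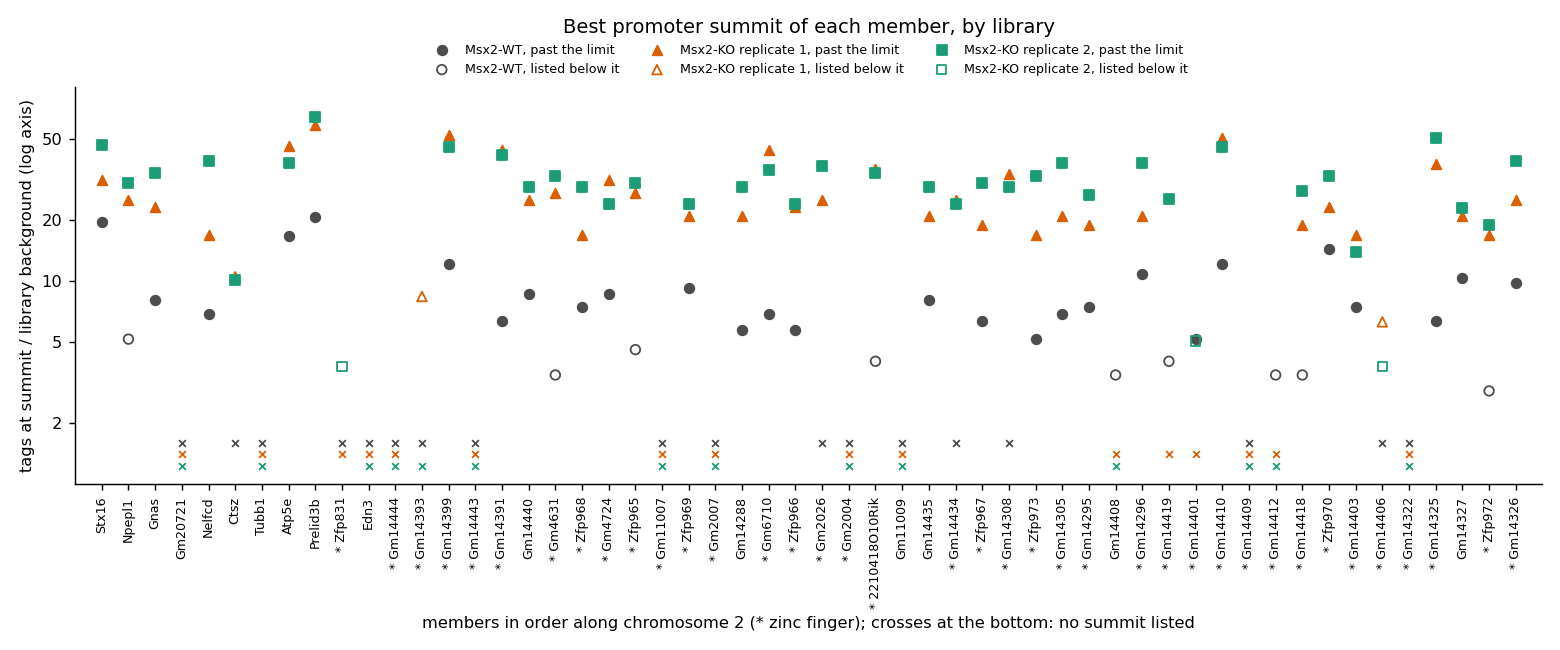
Tags at the best promoter summit, divided by the library background (log axis), are drawn for the 54 members in their order along chromosome 2, with filled marks past the limit, open marks listed below it and crosses where none was listed. In the run Msx2-WT marks lie between 2.88 and 14.4 and most Msx2-KO marks between 16.8 and 52.5, while Prelid3b outside the run reached 20.7 in Msx2-WT.

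The tags of the 22 zinc finger members with a listed summit in all 3 libraries summed to 281, 290 and 566. Set against the 251 Zfp genes elsewhere with a listed summit in all 3, this was 4.50% of the combined tags in Msx2-WT (4.01 to 5.04), 7.67% in Msx2-KO rep 1 (6.86 to 8.56) and 7.45% in Msx2-KO rep 2 (6.88 to 8.06). The same share for 6 single-copy genes of the stretch was 2.20% (1.86 to 2.60), 2.67% (2.20 to 3.26) and 2.77% (2.41 to 3.17). The 22 include 5 of the 8 members of the class for which the stretch was picked, so their sums are a description. Members without a listed Msx2-WT summit were left out, and for Gm14418 and Zfp972 the Msx2-WT tags counted lay at another place of the gene. Among the 6 single-copy genes this also held for Gnas. Its Msx2-WT summit lay at 174327633 and its Msx2-KO summits at 174329839 and 174329817.

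**Figure D3:**
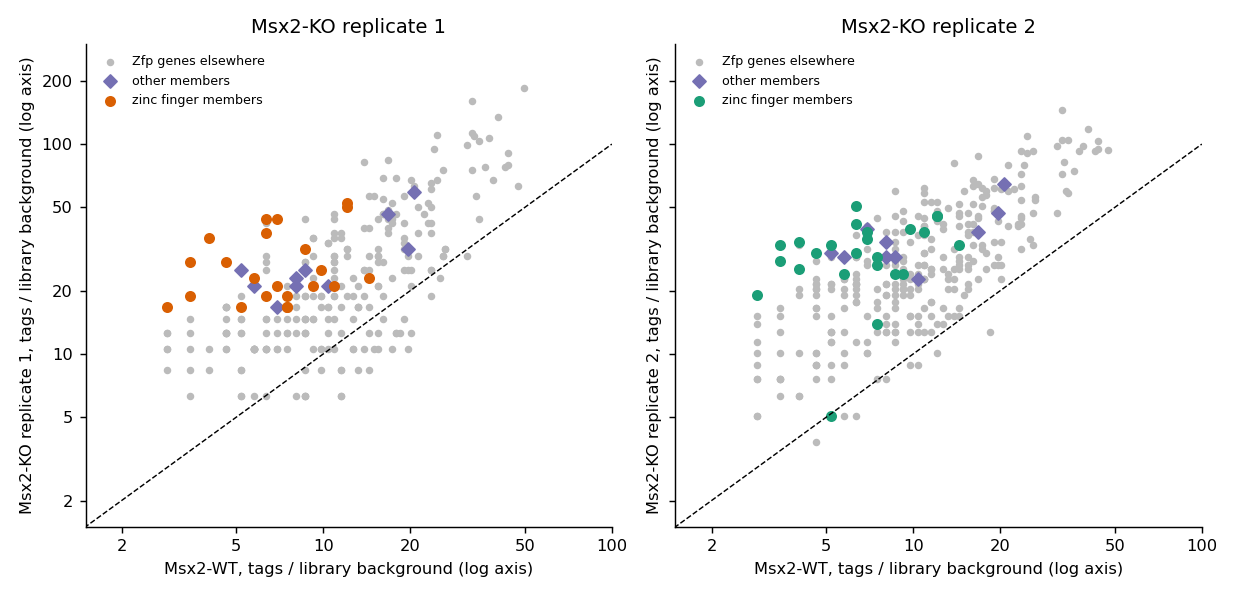
Each panel sets 1 Msx2-KO library against Msx2-WT in tags over library background (both axes log), for genes with a listed summit in both, with equal values on the dashed line. Many zinc finger members lie toward the upper edge of the cloud of Zfp genes elsewhere, and others, such as Zfp970 (23.1 and 32.9 against 14.4), lie inside it. Gm14401 lies at the line in Msx2-KO rep 2 (5.06 against 5.18). For Gm14401, Gm14418, Zfp972 and Gnas the paired summits lie at different places.

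Of the 10 members at the near end that are not zinc finger genes, 3 had a promoter peak in no library. In Msx2-WT 3 of the 10 lay above the median promoter, in Msx2-KO rep 1 also 3 and in Msx2-KO rep 2 6. Prelid3b, Stx16 and Atp5e lay above it in each library. Prelid3b, of a family of mitochondrial lipid transfer proteins, had 36, 28 and 51 tags. Stx16, a syntaxin of the trans-Golgi, had 34, 15 and 37, and Atp5e, a subunit of mitochondrial ATP synthase, had 29, 22 and 30. Nelfcd, a subunit of the negative elongation factor of RNA polymerase II, had 12, 8 and 31 tags. Npepl1, an aminopeptidase-like gene, was the single other member with a peak in both Msx2-KO libraries alone, with 9 tags below the limit in Msx2-WT and 12 and 24. Of the finger-less genes of the run, Gm14440 had 15, 12 and 23 tags, Gm14288 had 10, 10 and 23 and Gm14435 had 14, 10 and 23. In all, 9, 10 and 11 of the 16 other members had a promoter peak. These are 56.2% (33.2 to 76.9), 62.5% (38.6 to 81.5) and 68.8% (44.4 to 85.8), against 47.2%, 38.0% and 53.7% of all genes. The shares lay above those of all genes in each library, and the differences were not tested. In each library 4 of the genes with a peak belonged to the group of 30 copies, so the members are not independent. Ctsz, which encodes the protease cathepsin Z, had a promoter peak in Msx2-KO rep 2 alone, with 8 tags.

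Within the run most promoter peaks lay in the group of 30 copies. In the group of 30 copies 21, 28 and 29 windows belonged to a gene with a promoter peak, and of the 13 other windows 1, 1 and 1. Gm14322 was the remaining gene of the group, and it had summits with 13, 10 and 18 tags 68 to 75 bases before its outer start, where no protein-coding transcript of the basic annotation begins. Counted from outer starts, all 30 genes of the group had a promoter peak in at least 1 library, against 2 of the other 13, which were Zfp972 and Gm14401. Gm14401 had 9 tags in Msx2-WT at a summit 235 bases into the gene, with a −log10 q of 2.31, 4 tags below the limit in Msx2-KO rep 2 and none listed in Msx2-KO rep 1. The other windows of the zinc finger genes had a median of 0.0704 for observed over expected CpG, against 0.301 in the group. A read can match several windows of the group, so their peaks are not independent, and the part of this was not tested. Of the 13 others, Gm14443 and Gm14408 had the shared word 83 and 221 bases from their outer starts and no peak past the limit. Gm11007, Gm2007 and Gm2004, also of the 13, had a peak at a copy farther upstream, described below.

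Some copies of the shared word far from the outer starts of protein-coding genes carried peaks too. Of the 54 occurrences 35 lay within 1500 bases of the outer start of a protein-coding gene, and 33 of them had a summit past the limit within 1500 bases in at least 1 library. Of the 19 farther away 5 had one. These 5 include copies near the RefSeq starts of Gm2007 and Gm2004, and a copy whose summit lay 200 bases from the start of the pseudogene Gm14392. They are thus not all away from annotated starts. In all, 25 occurrences had a summit in all 3 libraries, 10 in both Msx2-KO libraries alone, 3 in Msx2-KO rep 2 alone, 0 in Msx2-WT alone and 16 in none. The summits lay close to the word. Their median position was 44, 36 and 33.5 bases downstream of its centre along the word, and 23 of 25 in Msx2-WT, 35 of 35 in Msx2-KO rep 1 and 38 of 38 in Msx2-KO rep 2 lay within 100 bases.

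**Figure D4:**
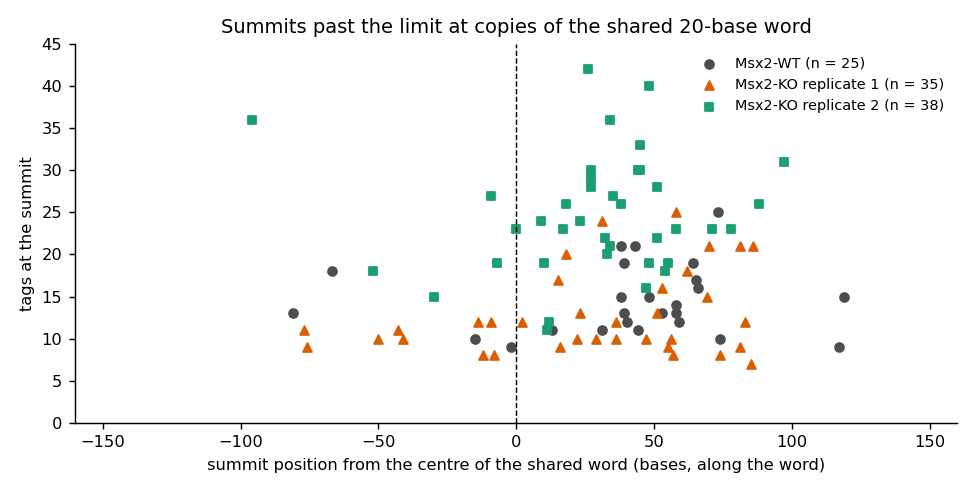
For each copy of the shared word with a summit past the limit, the position of the summit from the centre of the word (bases, positive along the word) is set against its tags, with a mark per library. The summits gather downstream of the word, with medians of 44, 36 and 33.5 bases, and the Msx2-KO rep 2 summits reach the highest tag numbers.

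Gm11007, Gm2007 and Gm2004 were counted among the members without a listed promoter summit, yet each had such a copy upstream. In Msx2-KO rep 2 a summit lay 3667 bases before the start of Gm11007 with 28 tags, 3735 before that of Gm2007 with 27 and 3671 before that of Gm2004 with 16. The 501 bases around the first and the second matched the Gm14434 window at 100% over 455 and 395 bases, and those around the third matched the Gm14419 window at 100% over 427 bases. RefSeq places the starts of Gm2007 and Gm2004 near these summits, 3700 and 3659 bases upstream of the GENCODE starts used here. Msx2-KO rep 1 had 12 tags before Gm11007 and 20 before Gm2007, and none past the limit before Gm2004. Msx2-WT had none past the limit at any of the 3.

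In all, 7 zinc finger members and 4 other members had no summit listed in any library within 1500 bases of the transcript starts used here. In order along the chromosome, the first 5 were Gm20721, Tubb1, Edn3, Gm14444 and Gm14443. Tubb1 encodes the beta-tubulin of platelets and Edn3 an endothelin that acts on melanocyte precursors. The 7 zinc finger members include Gm14322, Gm11007, Gm2007 and Gm2004, which had the summits before their outer starts described above. For these the count depends on the annotation. A further 4 zinc finger members, Zfp831, Gm14393, Gm14412 and Gm14406, had only summits below the limit, with 3 to 6 tags. Members just inside the limit were Zfp973 and Gm14401, each with a −log10 q of 2.31 in Msx2-WT, and the nearest zinc finger member below it was Zfp965 with 1.63.

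The share of repeated sequence at the promoters was measured as the percent of 50-base words in the window of 501 bases that occur more than once on the autosomes, X and Y, on either strand. It had a median of 100% in the zinc finger members, and 20 of the 38 had every word repeated. At least 50% was repeated in 84.2% of them, in 6 of the 6 finger-less genes of the run and in 0 of the 10 members outside it that are not zinc finger genes, against 6.60% of the Zfp genes elsewhere and 5.99% of all genes. With words of 150 bases, 19 zinc finger members still had every word repeated. By class, the median was 100% in the 17 zinc finger members with a peak in all 3 libraries and in the 10 with a peak in 1 or 2. It was 36.2% in the 4 with only summits below the limit and 88.9% in the 7 with none listed.

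The class of both Msx2-KO libraries was also counted by repeated sequence outside the stretch. There 1277 genes had at least 50% of words repeated, and 0.705% of them were in that class, against 2.47% of the 17849 genes with no repeated word. Few of the 1277 had any promoter peak, 11.2%, 9.16% and 12.3% in the 3 libraries, against 52.3%, 42.1% and 59.6% of the genes with no repeated word. The class of all 3 held 8.07% and 39.3%, so that 9 genes of the 1277 stood in the class of both Msx2-KO libraries beside 103 in that of all 3, against 440 beside 7006. The median percentiles of tags of the 1277, over those with a peak, were 52.6, 59.5 and 56.7. Among them were 512 genes with every word repeated, of which 1 (0.195%) stood in the class of both Msx2-KO libraries and 38 in that of all 3. The median percentiles of these 512, over those with a peak, were 58.0, 71.3 and 68.8.

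**Figure D5:**
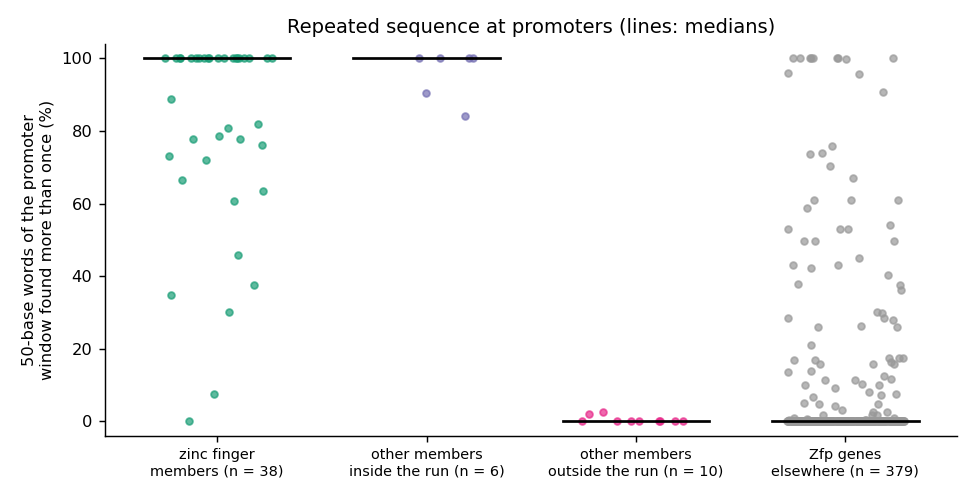
The percent of 50-base words in the promoter window that occur more than once in the genome is drawn for each gene of 4 sets, with the median as a line. The zinc finger members and the finger-less genes of the run have medians of 100%, and the members outside the run and the Zfp genes elsewhere have medians of 0%.

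Most summits of the run lay at promoters. In the run 84.6% of the 26 summits of Msx2-WT past the limit lay at a promoter, 85.3% of 34 in Msx2-KO rep 1 and 81.0% of 42 in Msx2-KO rep 2. This share was not computed for the autosomes, so it has no genome-wide value beside it. The summits counted outside promoters include those just before the outer start of Gm14322 and those upstream of Gm2007 and Gm2004. The run had 8.81, 11.5 and 14.2 summits per Mb, against 13.4, 7.68 and 16.3 over the autosomes. In Msx2-KO rep 1 the run was thus denser than the autosomes, and in the other libraries it was sparser.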

How the data were processed

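Omni-ATAC-seq peak lists of sorted HFSCs were used, 1 list for each of the 3 libraries (1 Msx2-WT, 2 Msx2-KO). According to the methods of the study, reads were trimmed by the authors, aligned to GRCm38/mm10 with BWA-MEM, freed of mitochondrial reads and passed to MACS2 for peak calling in each library, with duplicates kept. The deposited lists hold a display score that was not used, a fold ratio over the local background, a −log10 p, a −log10 q and a summit position. Each deposited list also held summits that miss a q-value of 0.01, which was applied here as −log10 q above 2.0. The fold and the −log10 p were solved for the whole tag number and local background that give both, which succeeded for at least 99.89% of summits in each list. The sequencing depth itself is not in the lists, and the library background, the commonest local background, served in its place (1.74, 0.476 and 0.790). How reads that match several places were treated is not given in the sources used here.

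Starts came from the GENCODE M21 basic annotation: every protein-coding transcript start for promoter peaks, and the outer gene start for sequence windows. C2H2 motifs were searched in the annotated coding sequence with a pattern of 2 cysteines and 2 histidines at the usual spacing. Windows were aligned locally with Biopython 1.88, and words were counted over GRCm38 with numba 0.67.0. The members and lists were chosen with earlier results of these data known. Named zinc finger members are the 25 with the largest −log10 q in any library and those in a class of Msx2-WT alone or both Msx2-KO libraries alone, and named other members are the 8 with the largest −log10 q or such a class. Ctsz, Gm14403 and the members outside this rule were named after their values were seen. Shares have 95% Wilson intervals and tags 95% Poisson intervals. The tag recovery, the assignment to starts and the word counts were tested on simulated data. In the lists of both Msx2-KO libraries the names of the peaks carry the tag cKO, and in that of replicate 1 another library number than its label has. The samples were used as labelled.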

Additional observations from a re-analysis of the deposited data

How the results depend on the processing

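The shares with a promoter peak of the zinc finger members, the other members and the Zfp genes elsewhere, and the counts of zinc finger members in the class of both Msx2-KO libraries and in that of Msx2-WT alone, were recomputed under up to 12 alternatives, plus RefSeq gene starts, an alternative chosen after seeing the data. The membership alternatives were applied to the zinc finger members and RefSeq starts to the members, and the other classes were not recomputed. Of 122 alternative values 94 stayed within the Wilson interval of the share or within 1.5 times the count. Windows of 500 or 3000 bases, the whole peak interval and genes partly inside the stretch moved none of those they were applied to. A −log10 q of at least 5 gave 26.3% of zinc finger members in Msx2-WT and, of the Zfp genes elsewhere, 56.5%, 35.4% and 67.8% in Msx2-WT, Msx2-KO replicate 1 and Msx2-KO replicate 2. Every deposited peak gave 65.8% of zinc finger members in Msx2-WT and 82.6%, 69.1% and 86.8% of the Zfp genes elsewhere. Lists of equal length gave 26.3% of zinc finger members in Msx2-WT and 56.5% (Msx2-WT) and 63.9% (Msx2-KO replicate 2) of the Zfp genes elsewhere. Thinning to the shallowest background gave Msx2-WT shares of 13.2% (zinc finger), 12.5% (other members) and 42.5% (Zfp elsewhere), and 71.5% for the Zfp genes elsewhere in Msx2-KO replicate 2. Outer starts alone gave 77.3% there. Symbols alone left 9 zinc finger members and shares of 66.7%, 88.9% and 88.9%. The 8 members with a peak in both Msx2-KO libraries alone became 13 at a −log10 q of at least 5, 4 with every deposited peak, 15 with lists of equal length, 19 with thinning and 2 by symbol alone. With RefSeq starts their number stayed at 8, but Gm4631 left the class and Gm2007 entered it. The 1 member with a peak in Msx2-WT and in neither Msx2-KO library became 0 with lists of equal length, with thinning, by symbol alone and with RefSeq starts, and under the limit of 5 and with every deposited peak it was another gene each time (Gm14403 and Gm14412). Without Msx2-KO replicate 1 or replicate 2 the first count was 9 or 8 and the other 1 in both cases. No paired analysis was possible because the groups share only the replicate number 1 and no test was made.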
